A study of Mus musculus with 10 samples.

Results

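The nuclear-encoded subunit genes of the mitochondrial respiratory chain and ATP synthase were compared between 2% and 10% CO2 in mouse embryonic fibroblasts. They were taken by annotation alone: protein-coding gene rows whose symbol starts with Nduf (assembly factors named Ndufaf left out), Uqcr, Cox4 to Cox8 or Atp5, or is Sdha, Sdhb, Sdhc, Sdhd, Cyc1 or Cycs. The rule itself uses no measured value, but it was chosen with earlier results of these data known. The rule gave 92 rows of 78317, with 91 symbols, since Atp5po stands under 2 gene identifiers. By name, 40 belonged to complex I, 4 to complex II, 9 to complex III, 1 to cytochrome c, 19 to complex IV and 19 to complex V. Ndufa4 was kept with complex I by its name, although its protein is now regarded as a part of complex IV.

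The respiratory chain sits in the inner mitochondrial membrane. Complex I (NADH dehydrogenase) and complex II (succinate dehydrogenase) pass electrons to ubiquinone, complex III passes them on to cytochrome c, and complex IV (cytochrome c oxidase) hands them to oxygen. The proton gradient built on the way drives complex V, the ATP synthase. Most subunits are encoded in the nucleus and imported, while a few core subunits are encoded by mitochondrial DNA. The nuclear factors NRF1, GABP and YY1 are known to bind many promoters of the nuclear set.

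The cells were mouse embryonic fibroblasts of wildtype genotype. T antigen, a viral protein that blocks p53 and the retinoblastoma protein, had immortalized them, controls included. Growth was at 37 °C under 10% CO2 in complete medium, and the cells were then held for 24 h at 10% CO2 (the control, 5 libraries) or at 2% CO2 (5 libraries). Each level had replicates 1 to 3 in batch 1, and its replicates 4 and 5 formed batch 2. What a batch was is not stated in the labels. The labels give neither the age or strain of the embryos nor whether the line is a clone, and nothing says that replicates were separate cultures. The p-values thus rest on the scatter among these libraries alone, and that scatter may be technical.

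Depth ran from 178676 to 12354538 estimated counts per library. In batch 1 the 10% CO2 libraries had 5694026, 8985537 and 8101893 counts, and the 2% CO2 libraries had 2621598, 178676 and 506405. In batch 2 there were 10607076 and 892318 counts at 10% CO2, against 12354538 and 12046407 at 2% CO2. Each 2% CO2 library was thus shallower than each 10% CO2 library in batch 1 and deeper in batch 2. The part of depth in the results below was not tested. The 2% CO2 replicates 2 and 3 and the 10% CO2 replicate 5 were the shallowest, with 178676, 506405 and 892318 counts, and 1 count was worth 5.6, 1.97 and 1.12 CPM there (counts per 1e+06 counts of the library). The summed level of 9 fibroblast markers was 7549 to 12299.7 CPM at 10% CO2 and 3857 to 7904 CPM at 2% CO2, against at most 30.8 CPM for epithelial, 15 for endothelial, 3.95 for macrophage, 2.24 for muscle and 1.12 for pluripotency markers. Of the 8 fibroblast markers tested, 5 fell and 0 rose at 2% CO2. The 1 endothelial marker tested, Kdr, rose by 0.98 on the log2 scale (adjusted p = 0.0134 by edgeR), and the summed endothelial level was 7.9 to 15 CPM at 2% CO2 and 4.07 to 7.73 CPM at 10% CO2. Of the other endothelial markers, Cdh5 averaged 0.0652 and 0.0600 CPM and Pecam1 1.14 and 0.117 CPM at 2% and 10% CO2. Pecam1 had 6.5 counts in all, and its highest level, 5.6 CPM, was the worth of 1 count in 2% CO2 replicate 2. For all these markers, their part in the results below was not tested. These are bulk libraries, in which fewer cells of a type and less RNA per cell cannot be told apart. Log2 fold changes below are 2% minus 10% CO2 after scaling by trimmed means (TMM), while CPM values are scaled by the library total only, so small differences can have opposite signs on the 2 scales.

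Of the 92 rows, 84 had enough counts to be tested over both batches. The 8 others included the tissue-restricted isoforms. Cox4i2, the lung isoform of subunit 4, had 6 counts over all libraries, Cox6a2 and Cox7a1 (heart and muscle isoforms) had 21 and 68, and Ndufa4l2 (a paralog of Ndufa4 known as a hypoxia target) had 12. Cox8b, Cox8c, Cox7b2 and Ndufb11b had 0 counts, which allows a level of up to 0.243 CPM in the deepest library and 16.8 CPM in the shallowest, counting error only. Cox6b2, the testis isoform of subunit 6b, was tested but low, between 0 and 2.29 CPM, and had a log2 fold change of -0.40 ± 0.50 (SE). Levels of the general and restricted isoforms were far apart. Per kilobase of median annotated transcript, the mean level was 788 CPM for Cox4i1 and 0.0881 for Cox4i2, 894 for Cox6a1 and 0.444 for Cox6a2, and 646 for Cox7a2 and 2.15 for Cox7a1. On the same scale Ndufa4 was highest of all rows at 1391 CPM per kilobase, followed by Atp5mc3 at 973, while the flavoprotein gene Sdha was at 59.0.

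The first comparison asked whether subunit transcripts differed between the CO2 levels over both batches. Of them, 1 of 84 tested genes rose at 2% CO2, 0 fell and 83 did not pass (edgeR quasi-likelihood test with batch in the model, adjusted p under 0.05 over all genes). Over all 13198 genes tested, 5.30% rose and 6.73% fell (700 and 888 genes, or 1031 and 614 with library total scaling, where 4 subunit genes rose). DESeq2 and limma-voom also called 1 higher and 0 lower, and at an unadjusted p under 0.05 there were 6 higher (7.14%) and 0 lower, against 12.7% and 13.5% of all genes. Without 10% CO2 replicate 5 this count was 16, and without 10% CO2 replicate 2 or 3 it was 2 in either direction. The median log2 fold change of the subunit genes was 0.10, against 0.00281 for all genes, with 68 positive and 16 negative, and it was -0.02 without 2% CO2 replicate 1. The 95% interval lay within a 2-fold change either way for 83 of 84 genes and within a 1.5-fold change for 72.

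**Figure D1:**
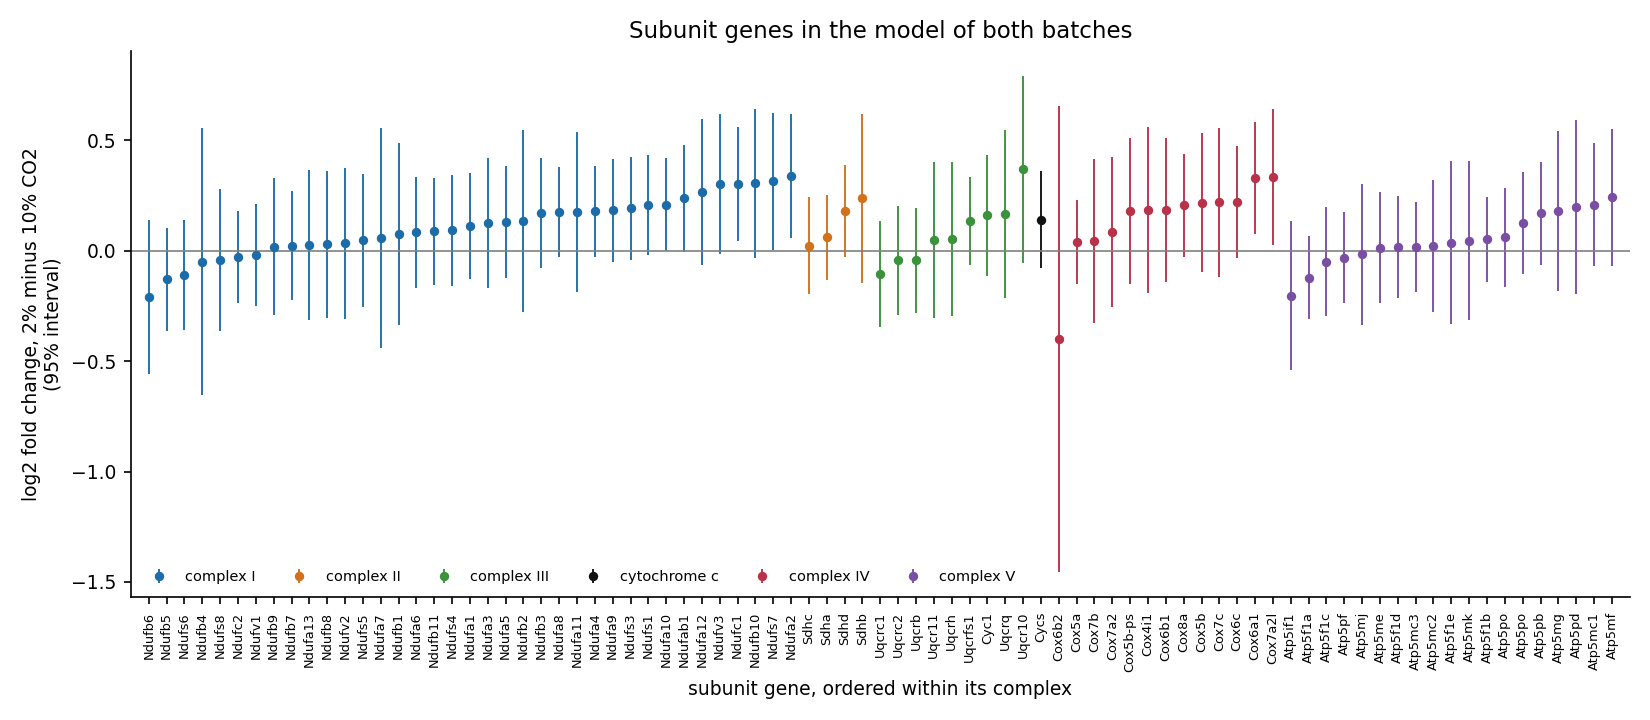
Log2 fold change (2% minus 10% CO2) of the 83 tested subunit genes that did not pass in the model of both batches, with 95% intervals, coloured by complex and ordered within it. Most points lie above zero, and the wide interval in complex IV is that of the low gene Cox6b2.

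The count over both batches was 0 without 10% CO2 replicate 4 and 0 with no batch term, where 2.04% and 0.947% of all genes were higher. Without 10% CO2 replicate 5 it was 4 (4.76%, against 4.98% of all genes). Of the 84 genes, 2 (2.38%) had every 2% CO2 library above every 10% CO2 library, and 0 had the opposite order, against 3.19% and 1.99% of all genes. Among these was Ndufc1 (ENSMUSG00000037152), a small accessory subunit of the membrane arm of complex I. In batch 1 it was at 149, 116 and 131 CPM (10% CO2) against 210.2, 179 and 182 CPM (2% CO2), and in batch 2 at 144 and 154 CPM (10% CO2) against 164 and 162 CPM (2% CO2). The log2 fold change over both batches was 0.30 ± 0.12 (SE) and did not pass (adjusted p = 0.118 by edgeR).

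The batches were then taken apart. In batch 1, 9 of 83 tested subunit genes rose at 2% CO2, 0 fell and 74 did not pass, while 2.66% of all 12275 genes tested rose and 3.56% fell. Complex I gave 5 of the 9 (Ndufa11, Ndufa12, Ndufa2, Ndufab1 and Ndufc1), complex III gave Uqcr10, complex IV gave Cox6a1 and Cox5b, and complex V gave Atp5mf. In the whole set 81 log2 fold changes were positive and 2 negative, with a median of 0.30 against 0.000118 for all genes. At an unadjusted p under 0.05, 33 were higher (39.8%), against 11.2% of all genes. Without 2% CO2 replicate 1 the median was 0.12 and 13 genes passed that p, 1 of them lower, and 17 and 19 passed it without 10% CO2 replicates 2 and 3. The 3 libraries at 2% CO2 lay above the 3 at 10% CO2 for 36 subunit genes (43.4%) and below them for 1, against 13.2% and 11.8% of all genes. The count of calls rested on single libraries. It was 0 without 10% CO2 replicate 2 or replicate 3, where 1.49% and 0.853% of all genes were higher. Without 2% CO2 replicate 1 it was 2 (2.38%, against 0.727% of all genes). Without 2% CO2 replicate 2 it was 3 (3.57%, against 1.88%), and without 10% CO2 replicate 1 it was 15 (18.1%, against 3.2%). With the shallow 2% CO2 replicates 2 and 3 both left out, the median log2 fold change was 0.46 for the subunit genes and -0.02 for all genes. That setting, chosen after seeing the data, leaves replicate 1 as the only 2% CO2 library of the batch, so its spread is taken from the 10% CO2 libraries alone.

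In batch 2 more of the values were negative, and none was called. Of 85 tested subunit genes 0 rose and 0 fell by edgeR, where 0.848% of all 14627 genes tested rose and 0.978% fell, and 1 was higher (1.18%) and 11 lower (12.9%) at an unadjusted p under 0.05, against 9.48% and 9.7% of all genes. That count of lower genes was 37 without 10% CO2 replicate 4, 4 without 10% CO2 replicate 5 or 2% CO2 replicate 4, and 1 without 2% CO2 replicate 5. DESeq2 called 1 lower (1.18%, against 0.998% of all genes) and limma-voom 0 (against 1.52%). The median log2 fold change was -0.12 (0.0000895 for all genes), with 25 positive and 60 negative. Both 2% CO2 libraries lay above both 10% CO2 libraries for 16 subunit genes (18.8%) and below them for 21 (24.7%), against 36.2% and 17.6% of all genes. The median was -0.00062 without 10% CO2 replicate 5, the shallow library of this batch, and -0.27 without 10% CO2 replicate 4, when 4 genes were called lower. Each such fit leaves 1 library in an arm, which is assumed to vary like the 2 of the other level.

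The difference between the batches was itself tested as an interaction of CO2 and batch. No gene passed, 0 of 84 subunit genes and 0 of all 13198 (0%), by edgeR and 0 subunit genes by limma-voom, while DESeq2 called 57 genes in all and 1 subunit gene, Ndufa11. At an unadjusted p under 0.05 there were 36 subunit genes (42.9%), all with a lower value in batch 2, against 5.29% of all genes in that direction. This count was 12 without 2% CO2 replicate 1, 13 without 10% CO2 replicate 5, 14 without 10% CO2 replicate 2 and 16 without 2% CO2 replicate 5. The median interaction was -0.49 for the subunit genes and 0.04 for all genes on the log2 scale, and for the subunit genes it was -0.27 without 2% CO2 replicate 1 and -0.35 without 10% CO2 replicate 5. Of 83 subunit genes tested in both batches, 58 (69.9%) had a positive log2 fold change in batch 1 and a negative one in batch 2, 23 were positive in both, 1 was negative in both and 1 was negative in batch 1 alone. Among all 12185 genes tested in both batches, 17.1% were positive in batch 1 and negative in batch 2.

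**Figure D2:**
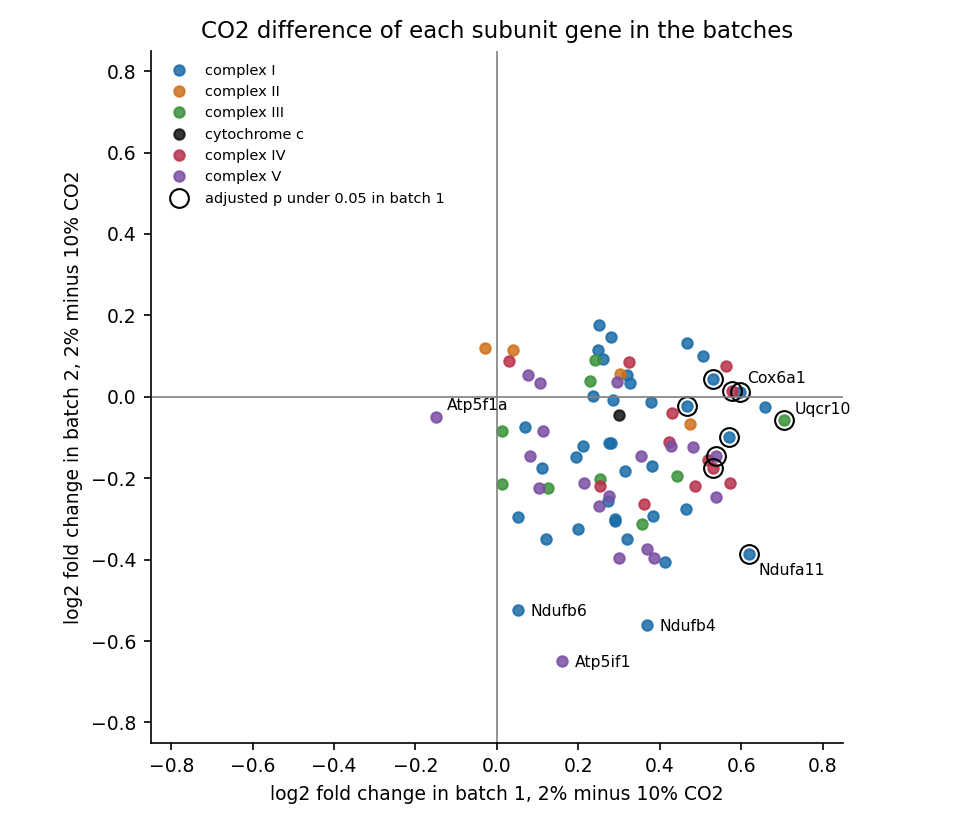
Log2 fold change (2% minus 10% CO2) of 82 subunit genes in batch 1 (horizontal axis) and batch 2 (vertical axis), coloured by complex, with rings around the 9 genes that passed the test in batch 1. Most points lie right of zero, and 58 of these lie below the horizontal line.

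Summed levels of each complex also differed between the batches. The 92 rows together took 20322, 16992 and 18857 CPM at 10% CO2, against 25828, 22232 and 22207 CPM at 2% CO2, in batch 1. In batch 2 they took 15889.5 and 18548 CPM (10% CO2) against 16847 and 16744 CPM (2% CO2). The 2% CO2 libraries lay above the 10% CO2 libraries in batch 1 and between them in batch 2. The ratio of the means was 1.25 in batch 1 and 0.975 in batch 2. For single complexes it ran in batch 1 from 1.2 for complexes II and V to 1.35 for complex IV, and in batch 2 from 0.95 for complex V to 1.1 for complex II. The 13 subunit genes of the mitochondrial genome, summed in the same way, had ratios of 0.999 and 1.05.

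**Figure D3:**
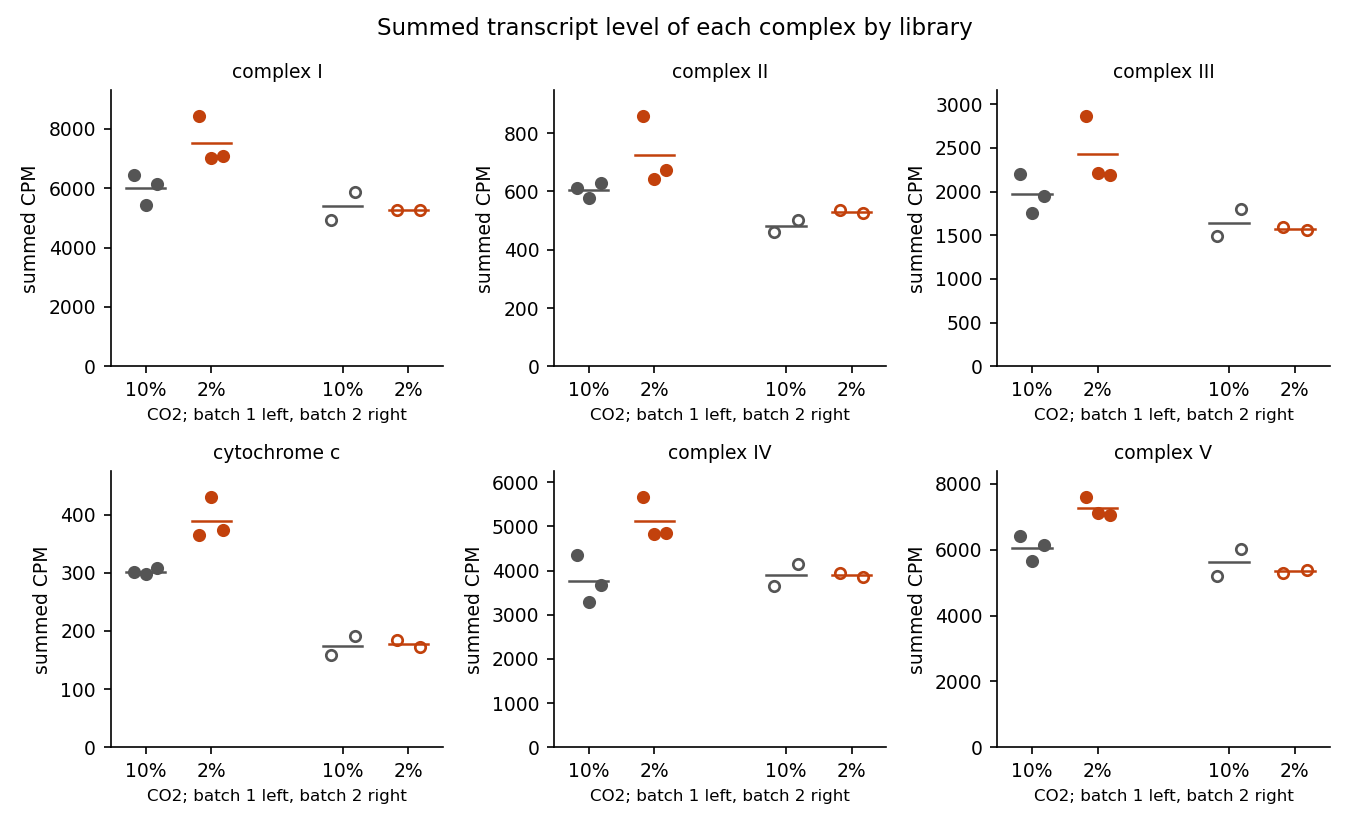
Summed CPM of the subunit genes of each complex in every library, by CO2 level, with batch 1 as filled and batch 2 as open points and lines at the means. In batch 1 the 2% CO2 libraries lie above the 10% CO2 libraries in each panel but that of complex III, where 1 library at 2195 CPM lies just under the highest at 10% CO2 of 2199 CPM, and in batch 2 the levels lie close together, with complex II slightly higher at 2% CO2.

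Promoters of genes that rose in batch 1 are shown because letters bound by NRF1, GABP and YY1 stand in several of them. RefSeq windows of build GRCm38.p6, from 250 bases before to 50 after each annotated start, were matched for 73 of the 92 rows (77 windows). The letters GCGCATGCG (NRF1, either strand) stood in 9 of the 77 windows (11.7%) and in 1.75% of all 32851 windows. CCGGAAG (the ETS core bound by GABP) stood in 16 (20.8%) and in 8.86% of all, and AAGATGGC (YY1) in 10 (13%) and in 2.75%. Any of the 3 stood in 30 of the 77 windows (39%) and in 12.5% of all. A match is a description of letters, not a bound site. Shown are 3 windows, with matches in capitals: Ndufa11 (chr17:56717512-56717811, plus strand), where 2 overlapping NRF1 matches form a palindrome, Cox6a1 (chr5:115348909-115349208, minus strand), with the same palindrome and a GABP match on the opposite strand, and Ndufc1 (chr3:51408906-51409205, minus strand), with a YY1 match behind the start.
Ndufa11: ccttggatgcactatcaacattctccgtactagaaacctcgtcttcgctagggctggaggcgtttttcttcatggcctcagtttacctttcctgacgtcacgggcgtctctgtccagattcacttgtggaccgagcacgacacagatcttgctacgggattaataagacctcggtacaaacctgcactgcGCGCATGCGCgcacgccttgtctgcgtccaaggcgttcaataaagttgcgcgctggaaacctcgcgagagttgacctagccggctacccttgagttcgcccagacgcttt
Cox6a1: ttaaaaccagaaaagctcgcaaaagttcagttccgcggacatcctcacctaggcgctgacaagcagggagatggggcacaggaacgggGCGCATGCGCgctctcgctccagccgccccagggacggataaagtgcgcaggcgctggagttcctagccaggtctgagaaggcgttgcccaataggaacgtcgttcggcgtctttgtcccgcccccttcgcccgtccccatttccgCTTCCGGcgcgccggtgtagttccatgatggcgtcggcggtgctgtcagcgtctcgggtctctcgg
Ndufc1: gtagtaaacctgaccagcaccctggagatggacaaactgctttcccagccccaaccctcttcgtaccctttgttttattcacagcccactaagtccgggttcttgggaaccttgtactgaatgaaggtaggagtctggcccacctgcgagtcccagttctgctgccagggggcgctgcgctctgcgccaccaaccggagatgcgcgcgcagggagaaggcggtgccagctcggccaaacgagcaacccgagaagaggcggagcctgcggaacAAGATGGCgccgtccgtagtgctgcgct
The windows of Ndufa12, Ndufab1, Uqcr10 and Cox5b, which also rose in batch 1, held none of these letters, and that of Atp5mf held the YY1 letters. Ndufa2, which rose too, had no matched window. Matches are thus not particular to the genes that rose.

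Complex I has core subunits that carry the electron path and a shell of accessory subunits. Of its 38 tested genes all 38 log2 fold changes were positive in batch 1 (median 0.30) and 26 were negative in batch 2 (median -0.11). Ndufa11 (ENSMUSG00000002379), an accessory subunit of the membrane arm, had the greatest difference between the batches in the complex. In batch 1 it was at 140.1, 111 and 138 CPM at 10% CO2, against 188, 224 and 217 CPM at 2% CO2, and in batch 2 at 92.0 and 111 CPM (10% CO2) against 77.0 and 84.5 CPM (2% CO2). The levels did not overlap in either batch, and 2% CO2 was the higher level in batch 1 and the lower one in batch 2. The log2 fold change was 0.62 ± 0.15 in batch 1 (SE, adjusted p = 0.0182 by edgeR) and -0.39 ± 0.13 in batch 2 (adjusted p = 0.167), and the interaction of -1.02 ± 0.21 had an adjusted p of 0.324 by edgeR.

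The other called genes of complex I were accessory subunits as well. Ndufa2, of the matrix arm, was at 267, 205 and 242 CPM at 10% CO2, against 393, 397 and 326 CPM at 2% CO2, in batch 1, for a log2 difference of 0.60, and its difference in batch 2 was 0.01. Ndufa12, also of the matrix arm, was in batch 1 at 196, 174 and 170.4 CPM (10% CO2) against 279.8, 327 and 237 CPM (2% CO2), where the levels did not overlap. In batch 2 its values were 172 and 271 CPM at 10% CO2, against 220.4 and 209 CPM at 2% CO2, so that the 10% CO2 libraries enclosed the others. Ndufab1, the mitochondrial acyl carrier protein, which also serves fatty acid synthesis, had log2 fold changes of 0.47 and -0.02, and Ndufc1, a small membrane subunit, of 0.53 and 0.04. The adjusted p of these 4 genes in batch 1 lay between 0.0240 and 0.0495 by edgeR. At the other end stood accessory subunits of the membrane arm. Ndufb6 had the lowest log2 fold change of complex I over both batches, -0.21 ± 0.16 (SE), with 0.05 in batch 1 and -0.52 in batch 2, and Ndufb5 followed at -0.13. Ndufb4 had log2 fold changes of 0.37 and -0.56 in the batches, with fractional counts in all 10 libraries, so its values are uncertain.

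Complex II is the smallest complex and the one that also works in the citric acid cycle. Of its 4 genes 0 passed over both batches, in batch 1 and in batch 2, with 0, 1 and 0 at an unadjusted p under 0.05. Sdhb was called higher in batch 1 without 2% CO2 replicate 3, and without 2% CO2 replicates 2 and 3. Sdha, the catalytic flavoprotein, was at 94.8, 97.7 and 90.0 CPM at 10% CO2, against 95.7, 101 and 103 CPM at 2% CO2, in batch 1, and at 109.5 and 117 CPM (10% CO2) against 129 and 131 CPM (2% CO2) in batch 2. Its levels overlapped in batch 1 and did not in batch 2, where 2% CO2 was higher. The 95% interval of its log2 fold change over both batches was -0.13 to 0.25. Sdhb, the iron-sulfur subunit, was at 261, 224 and 275 CPM at 10% CO2, against 476, 297 and 253 CPM at 2% CO2, in batch 1. The 2% CO2 replicate 1 stood far above the rest there, and without it the log2 fold change over both batches went from 0.24 to -0.06. The membrane anchors Sdhc and Sdhd had log2 fold changes of 0.02 and 0.18 over both batches.

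In complex III, 1 of 9 genes rose in batch 1, Uqcr10, a small subunit bound to the cytochrome c1 region. It was at 229, 151 and 184 CPM at 10% CO2, against 376, 257 and 272 CPM at 2% CO2, in batch 1 and at 173 and 230.3 CPM (10% CO2) against 220.2 and 187 CPM (2% CO2) in batch 2. The levels did not overlap in batch 1, and in batch 2 the 10% CO2 libraries enclosed the others. Its log2 fold change was 0.71 ± 0.19 in batch 1 (SE, adjusted p = 0.0398 by edgeR), the greatest of the set, and -0.06 ± 0.17 in batch 2. The core proteins Uqcrc1 and Uqcrc2 were near zero in batch 1, at 0.01 and 0.01, and Uqcrq, which binds near cytochrome b, was at 0.44 in batch 1 and -0.19 in batch 2. Cycs, the mobile carrier cytochrome c, was at 301, 297 and 308 CPM at 10% CO2, against 364, 431 and 374 CPM at 2% CO2, in batch 1, and at 158 and 191 CPM (10% CO2) against 184 and 172 CPM (2% CO2) in batch 2. The levels did not overlap in batch 1 and overlapped in batch 2, and the test was not passed in either (log2 fold changes 0.30 and -0.04).

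Complex IV had the highest median in batch 1, 0.46 over 12 tested genes, all positive, and -0.13 over 14 in batch 2. Cox6a1, the general isoform of subunit 6a, had the smallest adjusted p of the set in batch 1. It was at 465, 380.3 and 394 CPM at 10% CO2, against 631, 644 and 644 CPM at 2% CO2, there, and at 437 and 501 CPM (10% CO2) against 513 and 498 CPM (2% CO2) in batch 2. The levels did not overlap in batch 1, where the log2 fold change was 0.58 ± 0.13 (SE, adjusted p = 0.0157 by edgeR), against 0.01 ± 0.13 in batch 2. Cox5b, a subunit on the matrix side, rose by 0.53 on the log2 scale in batch 1 and had -0.18 in batch 2. Cox5b and its retrocopy Cox5b-ps, which the annotation calls protein-coding, each had fractional counts in 7 libraries, so their split is uncertain. Cox4i1, the general subunit 4, did not pass at 0.49 in batch 1 and -0.22 in batch 2, with 999, 638 and 685 CPM at 2% CO2 and 635, 448 and 566 CPM at 10% CO2 in batch 1. Cox5a had the lowest value of the complex in batch 1, 0.03, and 0.09 in batch 2. Cox7a2l, which ties complexes III and IV into supercomplexes, had the highest value of the complex over both batches, 0.33 ± 0.15 (SE), and did not pass (adjusted p = 0.155 by edgeR). Cox7a2 and Cox8a had 0.09 and 0.21 over both batches.

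In complex V, 1 of 19 genes rose in batch 1, Atp5mf, subunit f of the membrane sector. It was at 434, 337 and 381 CPM at 10% CO2, against 644, 543 and 516 CPM at 2% CO2, in batch 1, without overlap, and at 315 and 396 CPM (10% CO2) against 359 and 324 CPM (2% CO2) in batch 2, with overlap. The log2 fold changes were 0.54 ± 0.15 (SE, adjusted p = 0.0418 by edgeR) and -0.14 ± 0.15. Atp5f1a, the alpha subunit of the catalytic head, was the 1 subunit gene with all batch 1 libraries lower at 2% CO2, 441, 470.1 and 458 against 475, 506 and 481 CPM, a log2 fold change of -0.15 ± 0.12 that did not pass. The inhibitor Atp5if1, which blocks ATP hydrolysis by the enzyme, had the lowest adjusted p of the set in batch 2. It was at 172 and 222 CPM at 10% CO2, against 131 and 132 CPM at 2% CO2, there, and in batch 1 at 241, 179 and 213 CPM (10% CO2) against 257, 213 and 239 CPM (2% CO2). The levels did not overlap in batch 2 and overlapped in batch 1. The log2 fold change of -0.65 ± 0.15 in batch 2 (SE) missed the threshold by edgeR (adjusted p = 0.0611), and DESeq2 called it. Atp5mc1, Atp5mc2 and Atp5mc3 encode the same mature ring subunit c behind different import signals, and had 0.48, 0.28 and 0.11 in batch 1 and -0.12, -0.24 and -0.09 in batch 2, none called.

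**Figure D4:**
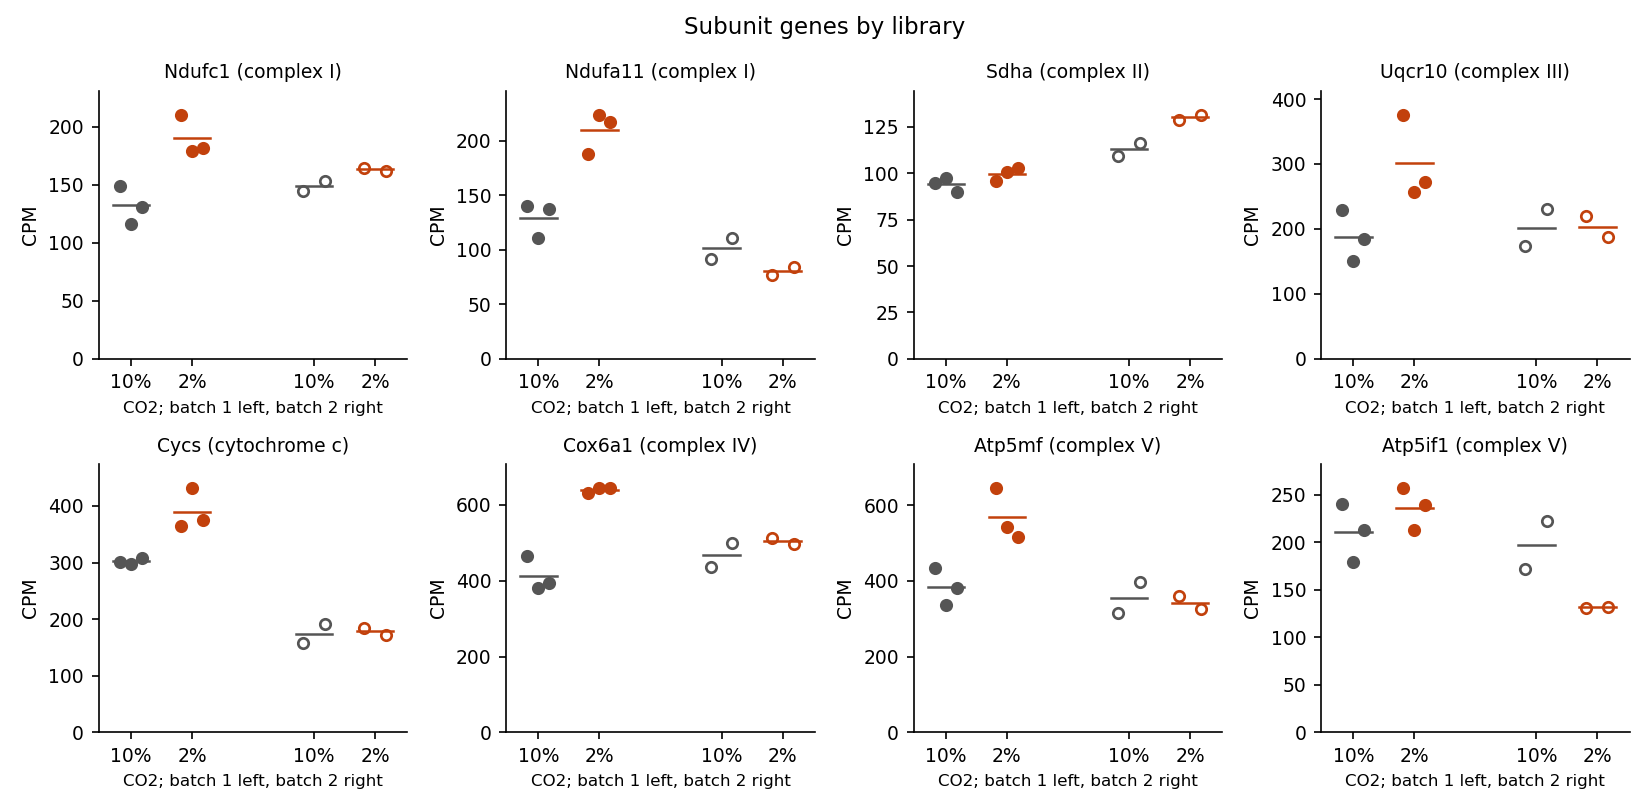
CPM of 8 subunit genes in every library by CO2 level, with batch 1 as filled and batch 2 as open points and lines at the means. Ndufc1 is higher at 2% CO2 in both batches, Ndufa11 is higher in batch 1 and lower in batch 2, and Sdha overlaps in batch 1 and is higher at 2% CO2 in batch 2.

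Values also differed by transcript length. Subunit transcripts are short, with a median length of 655 bases (range 321.5 to 3123) against 1973 for all tested genes, and 64 of the 84 tested genes lay under 1 kb. All genes under 1 kb had a median log2 fold change of 0.16 in batch 1 and -0.10 in batch 2, and genes of 4 kb or more had -0.16 and 0.04. The subunit genes under 1 kb had 0.31 and -0.16. The share of counts in genes under 1 kb was in batch 1 41.7, 38.7 and 40.6% (10% CO2) against 44.8, 41.5 and 41.3% (2% CO2). In batch 2 it was 37.9 and 41.6% (10% CO2) against 37.1 and 37.5% (2% CO2). Smooth trends on length and GC content were then removed, a setting added after seeing the data. The medians of the subunit genes were 0.20 in batch 1 and -0.05 in batch 2, and the median interaction went from -0.49 to -0.30. In batch 1, 6 subunit genes were higher (7.23%), against 3.14% of all genes. The part of length in the remaining difference was not tested.

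**Figure D5:**
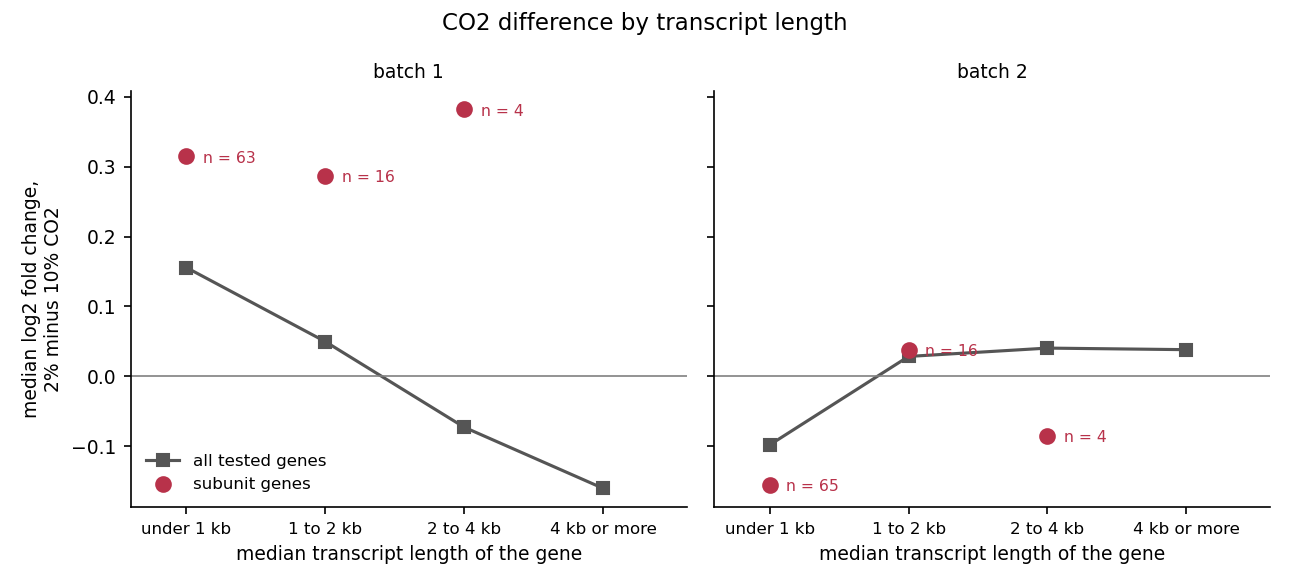
Median log2 fold change (2% minus 10% CO2) of all tested genes (squares) and of the subunit genes (circles, with their number) in 4 classes of transcript length, for batch 1 and batch 2. In batch 1 the line of all genes falls from 0.16 to -0.16 and the subunit genes lie above it, and in batch 2 short genes of both kinds lie below zero.

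Genes that build or regulate the complexes were described from lists kept beside the subunits, with both batches in the model. Of the assembly factors, 2 of 14 for complex I rose, 0 of 4 for complex II, 2 of 6 for complex III, 4 of 18 for complex IV and 1 of 3 for complex V, and 0 fell in each, against 5.30% of all genes higher and 6.73% lower. The medians of these lists were 0.02, 0.28, 0.21, 0.27 and 0.12 in that order. Ndufaf8, an assembly factor of complex I, averaged 85.3 ± 25.5 CPM in the 5 libraries at 2% CO2 against 47.6 ± 8.0 CPM in the 5 at 10% CO2 (SD), and its log2 fold change was 0.71 over both batches, 0.95 in batch 1 and 0.42 in batch 2. Atpaf2, a chaperone of the ATP synthase head, rose by 0.59 on the log2 scale, and Sco2, a copper carrier for complex IV, by 0.65. Of 12 tested genes of ubiquinone synthesis 4 rose and 0 fell, with a median of 0.30 and medians of 0.26 in batch 1 and 0.35 in batch 2. Pdss1, which makes the ubiquinone side chain, was at 0.53 and 0.67 in the batches, and Coq9 at 0.94 and 0.77. Both genes were positive in both batches.

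Of 11 tested regulators of respiratory genes 3 rose and 1 fell, and the median was 0.06. Nrf1, which encodes the factor NRF1, averaged 61.6 ± 16.5 CPM in the 5 libraries at 2% CO2 against 42.7 ± 7.88 CPM in the 5 at 10% CO2 (SD). Its log2 fold change was 0.56 (edgeR adjusted p = 0.00592), and its part in the levels of the subunit genes was not tested. Tfam, which acts on mitochondrial DNA, and Tfb1m rose by 0.33 and 0.75, and Esrra, a nuclear receptor, fell by 0.46, all on the log2 scale. Gabpa and Yy1 did not pass, at 0.08 and -0.02, and Ppargc1a, the coactivator PGC-1 alpha, had 15 counts in all and was too low to test. Of the 13 subunit genes of mitochondrial DNA, 0 rose and 1 fell, mt-Nd6, at a log2 fold change of -0.97, and their median was -0.11. It is the 1 subunit gene on the other strand of that genome. Of the 18 calls in these lists, 4 held whichever library was left out (Ndufaf8, Atpaf2, Pdss1 and mt-Nd6) and 5 were lost in 1 such fit, those of Sco2, Nrf1 and Coq10a without 10% CO2 replicate 4 and those of Coq9 and Coa6 without 2% CO2 replicate 1. The other 9 were lost in several, Tfam, Tfb1m and Esrra among them, each of them without 10% CO2 replicate 4 too, and their highest adjusted p by edgeR was 0.122, 0.226 and 0.111.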

How the data were processed

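Per the labels' protocols, bead-isolated RNA from a stabilizing reagent was the source, and its mRNA was made into tagmented and amplified cDNA libraries. Strand and molecular identifiers are not stated. The submitters' processing notes name build GRCm39 and the tools MultiQC 1.32, featureCounts (Subread 2.1.1), SAMtools 1.22.1 and STAR 2.7.11. For their settings and for the annotation, no source used here gives details. The authors deposited estimated counts per gene, of which 71% to 79.2% of the nonzero values in a library are whole to within 1e-06. They also deposited CPM, which equal the counts divided by the library total to within 4.8e-05 CPM and were used for the levels printed here. Among the subunit rows, 66 of 92 had fractional counts in at least 1 library, so members with near-identical copies are uncertain. The 92 spike-in entries were left out.

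Counts were rounded and tested on the whole table with edgeR 4.0.16 in R 4.3.3 (filterByExpr with a minimum count of 10 and total of 15, TMM scaling, robust quasi-likelihood F tests, two-sided, Benjamini-Hochberg adjusted p under 0.05). The models were batch plus CO2, each batch alone, and batch by CO2. DESeq2 1.42.0, voom of limma 3.58.1, other scalings and filters, unrounded counts, a replicate block and leaving out each library were alternatives. Trends with length and GC content and a fit without 2% CO2 replicates 2 and 3 were added after seeing the data. Lengths are medians over transcripts of GENCODE on an earlier build than that used for counting, and served as gene properties only. Promoters are RefSeq windows of GRCm38.p6. Called genes, the 2 highest and 2 lowest of each complex, isoform pairs and the genes too low to test are named, but 1 gene that the rule selects is not reported here. Members, lists and tests were chosen with earlier results of these data known. No pair of libraries at the same CO2 level agreed fully within sampling noise, and pairs across the levels were not compared. The closest, 2% CO2 replicates 2 and 3, had a chi-squared per degree of freedom of 1.17 over 5859 genes. Sampling noise alone gives about 1, and the other pairs ran from 2.05 to 42.3. The fits were tested on simulated data, but no outcome of that is given here.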

Additional observations from a re-analysis of the deposited data

Results flagged for a closer look

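Of 78 groups of 5 libraries examined for a single value apart from the others, 2 were found, where chance gives about 1 in 20. Ndufa12 was at 271 CPM in 10% CO2 replicate 5 and between 170 and 196 CPM in the other 10% CO2 libraries. Uqcrc2 was at 137 CPM in 10% CO2 replicate 1 and between 113 and 119 CPM in the others of that level.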

How the results depend on the processing

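Over both batches the count of subunit genes higher at 2% CO2, 1 as reported, was 4 with library total scaling, 2 with no filter, 3 with the 3 libraries of fewest counts left out, 0 with no batch term and 5 with length and GC trends removed, and 0 to 4 with single libraries left out; the count lower was 0 to 1 there. With trends removed 5.95% of subunit genes and 7.17% of all genes were higher, and without 10% CO2 replicate 5 4.76% and 4.98%. These shares were 4.76% and 7.81% with library total scaling and 2.27% and 2.27% with no filter. Without the 3 libraries of fewest counts they were 3.53% and 4%. With no batch term 0.947% of all genes were higher. In batch 1 the 9 higher became 16 with library total scaling, 16 with the replicate block, 24 without 2% CO2 replicates 2 and 3, and 0 to 15 with single libraries left out. In batch 2 the 0 lower became 3 with no filter, 5 with the replicate block, 1 each with the stricter filter of 10 CPM, DESeq2, 1 model of all libraries and trends removed, and 0 to 4 with single libraries left out, and the 0 higher became 1 each with library total scaling, no filter and the replicate block. With the block 5.88% of subunit genes and 5.61% of all genes were lower in batch 2, with no filter 3.41% and 2%, and without 10% CO2 replicate 4 4.71% and 1.5%. The fits with 1 lower gene in batch 2 (1.18% to 1.2%) had 0.998% to 2.31% of all genes lower. Those with 1 higher gene (1.14% to 1.18%) had 1.93% to 4.51% of all genes higher. The interaction count of 0 became 2 with no filter (2.27%, against 0.289% of all genes in that direction) and 1 with DESeq2 (1.19%, against 0.432%).

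Replicate numbers are shared by the CO2 levels, but same-numbered libraries deviated together beyond the batch by correlations of 0.45, 0.29, 0.04, 0.42 and 0.42, not all above 0.1, so they were not taken as pairs. With the block in place of batch, 1 gene was called higher over both batches, as without it, and Atp5mc2 went to -0.011. In the batches apart the block did change the calls. Batch 1 had 16 subunit genes higher with it and 9 without, and 7.82% against 6.22% of all genes were called. Batch 2 had 5 lower and 1 higher with it and 0 without, and 10.1% against 1.83% of all genes were called.

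Some log2 fold changes over both batches, none of them called as reported, changed sign. With the 3 libraries of fewest counts left out, Ndufb6 was at 0.084, Uqcrc1 at 0.073 and Uqcrc2 at 0.085. Uqcrc2 was at 0.026 with library total scaling and Sdhc at -0.0022 with trends removed. With single libraries left out, values ran from -0.076 to 0.16 for Atp5mc2, -0.020 to 0.067 for Atp5mc3, -0.039 to 0.26 for Cox4i1, -0.85 to 0.20 for Cox6b2, -0.10 to 0.21 for Cox7a2, -0.060 to 0.32 for Sdhb, -0.036 to 0.073 for Sdhc, -0.18 to 0.0077 for Uqcrc2 and -0.055 to 0.28 for Uqcrq. The causes were not tested. With no filter, the medians were -0.22 for all genes and 0.24 for the subunit genes in batch 1, and 0.29 and -0.39 for the interaction. With library total scaling they were 0.10 and -0.02 in batch 2, and 0.13 and -0.42 for the interaction. Depth limits the low isoforms and every value that rests on 2% CO2 replicate 2.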

Other observations

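Several subunit genes differed more between the batches than between the CO2 levels, as values with no test. Uqcr11, a small subunit of complex III, had a mean of 317 CPM in batch 1 and 143 CPM in batch 2 at 10% CO2, and 367 and 129 CPM at 2% CO2. Sdhb stood at 253 and 129 CPM at 10% CO2, and Cycs at 302 and 174 CPM. Cox5a went the other way, from 368 to 512 CPM at 10% CO2. Sdhc, in the same complex as Sdhb, was at 131 and 133 CPM.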
